A study of Caenorhabditis elegans with 9 samples.

Results

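The genes described here are the 8 subunits of the C. elegans DREAM complex, together with lin-15A and lin-15B, the marker gene pair carried by the transgenes of the study. They were chosen by name: lin-35, efl-1, dpl-1, lin-9, lin-37, lin-52, lin-53 and lin-54 for the complex, and ZK678.1 (lin-15A) and ZK662.4 (lin-15B) for the marker. They make 10 of the 28749 genes in the deposited table, and all 10 passed the filter on low values. Poly(A) RNA of whole worms was sequenced from 3 strains, with 3 libraries for each. N2 was the Bristol wild type. WLZ1 carried wlzIs1, a transgene with human LRRK2 behind the snb-1 promoter together with lin15(+). WLZ3 carried wlzIs3, in which the same promoter drove LRRK2 with the G2019S substitution, again together with lin15(+). LRRK2 is a large human kinase whose variants are linked to Parkinson's disease, and the promoter of snb-1 (synaptobrevin) is active across the nervous system. Each transgene was represented by 1 integrated line, so the form of LRRK2, the insertion and the background of the line cannot be told apart. Worms of all 3 strains grew at 20 °C on E. coli OP50. The labels state neither the stage or age at harvest nor, for WLZ1 and WLZ3, the state of the native lin-15 locus or the copy number of the transgene. The human transcript was not analysed here.

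The DREAM complex represses transcription at genes of the cell cycle and, in worm somatic cells, at genes that belong to the germ line. A retinoblastoma family pocket protein (LIN-35) and an E2F and DP pair (EFL-1 with DPL-1) join a core called MuvB, made of LIN-9, LIN-37, LIN-52, LIN-53 and LIN-54. The worm genes came largely from screens for the synthetic multivulva (synMuv) phenotype, in which loss of a class A gene together with a class B gene lets too many cells adopt a vulval fate through ectopic LIN-3 EGF signalling. The DREAM genes are class B. The lin-15 locus is an operon that yields 1 gene of each class, lin-15B upstream and lin-15A downstream, and a genomic lin-15(+) fragment is a widely used marker of transformation because it rescues the multivulva phenotype of lin-15 mutant hosts. Reads of a lin-15(+) transgene and of the native locus fall on the same gene models and cannot be told apart in the table.

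Values were library-scaled fragments per kilobase of transcript (FPKM), and a difference is on the log2(FPKM + 1) scale with its standard error (SE). A gene was called where limma's adjusted p over all 14862 tested genes was under 0.05. The libraries held 38128734 to 53336537 reads on genes, recovered from the FPKM and annotated lengths, and the 10 genes were covered by 1436 to 21466 reads per library. Reads of lin-15B were recovered with a length of 4579 bases, since its annotated 4590 bases gave no whole reads. Counting error in the library with the fewest reads was between 1.47% and 3.73% for the 10 genes. Whether the 3 libraries of a strain derive from different cultures is not stated, and a p-value here reflects library-to-library spread that may be technical. Marker lists of tissues differed widely between the strains: against N2, 10 of 10 germ line markers and 5 of 5 tested sperm markers were called higher in WLZ1, and 7 of 7 neuron markers and 6 of 6 muscle markers were called lower. Of 6 epidermis and 6 intestine markers, 3 and 4 were called lower and 0 higher. In WLZ3, 7 germ line and 3 sperm markers were called higher, and 7 neuron, 4 muscle, 3 epidermis and 1 intestine markers lower, with 1 epidermis marker higher. The 7 germ line calls in WLZ3 became 2 without N2 replicate 2 or 3 and 4 without WLZ3 replicate 1 or 2, the 4 muscle calls became 2 without N2 replicate 2, N2 replicate 3 or WLZ3 replicate 2, and the 3 sperm calls became 5 without WLZ3 replicate 2. Calls of epidermis markers in WLZ3 varied from 1 to 2 when any single library was left out. For comparison, 26.6% of all tested genes were called higher and 41.1% lower in WLZ1, and 13.3% and 22.7% in WLZ3. The summed level of the 6 sperm markers was 4.45 to 14.1 FPKM in N2, 143 to 186 FPKM in WLZ1 and 19 to 123 FPKM in WLZ3. In RNA of whole worms, more cells of a type and more RNA per cell cannot be told apart, which holds for every level below.

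Both lin-15 genes were far higher in WLZ1 than in N2 and lay between these strains in WLZ3. lin-15A (WBGene00023498; WBcel235 chromosome X, 15731968 to 15735365, plus strand) encodes a nuclear class A synMuv protein. Its level was 16.6, 17.6 and 16.1 FPKM in the N2 libraries, 76.4, 70.3 and 76.8 FPKM in WLZ1, and 22.4, 23.1 and 22.5 FPKM in WLZ3. The 3 groups did not overlap, and WLZ3 lay close above N2. The mean rose from 16.8 ± 0.773 FPKM (SD, n = 3) in N2 to 74.5 ± 3.64 FPKM in WLZ1, 4.45-fold, a log2 difference of 2.09 (SE 0.05, limma adjusted p = 9.70e-08). In WLZ3 the mean was 22.7 ± 0.387 FPKM, 1.35-fold that of N2, with a log2 difference of 0.42 (SE 0.05, limma adjusted p = 0.0013).

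lin-15B (WBGene00023497; chromosome X, 15726129 to 15731861, plus strand) encodes a class B synMuv protein with a THAP domain that keeps germ line genes silent in somatic tissue. Its level was 16.8, 17.8 and 17.9 FPKM in N2, 87.9, 76.9 and 83.6 FPKM in WLZ1, and 37.8, 42.8 and 41.8 FPKM in WLZ3. Again the 3 groups did not overlap, but WLZ3 stood well above N2. The mean rose from 17.5 ± 0.624 FPKM to 82.8 ± 5.53 FPKM in WLZ1, 4.73-fold, a log2 difference of 2.18 (SE 0.06, limma adjusted p = 2.72e-07). In WLZ3 it was 40.8 ± 2.64 FPKM, 2.33-fold that of N2, a log2 difference of 1.17 (SE 0.06, limma adjusted p = 2.42e-05). Between the transgenic strains, WLZ3 was lower than WLZ1 for lin-15A by 3.29-fold (log2 difference -1.67, limma adjusted p = 5.48e-07) and for lin-15B by 2.03-fold (log2 difference -1.0, limma adjusted p = 1.60e-05).

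By p-value, lin-15A ranked 3 and lin-15B ranked 4 among the 14862 genes tested between WLZ1 and N2. Between WLZ3 and N2, lin-15B ranked 13 and lin-15A ranked 281. Both kept their call in all 3 contrasts under each of the 16 alternatives of processing. The contrasts of WLZ1 and WLZ3 with N2 share the N2 libraries, so their values are set side by side and not counted as separate evidence.

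The balance between the pair differed between strains. The ratio of lin-15A to lin-15B, in FPKM per library, was 0.989, 0.990 and 0.897 in N2. It was 0.869, 0.914 and 0.919 in WLZ1, and 0.592, 0.540 and 0.538 in WLZ3. Ratios of WLZ1 overlapped those of N2, and all 3 ratios of WLZ3 lay below every other library. The mean ratio was 0.958 ± 0.053 (SD, n = 3) in N2, 0.901 ± 0.028 in WLZ1 and 0.557 ± 0.031 in WLZ3. An exact permutation test of the log2 ratio over all 1680 assignments of the 9 libraries to 3 groups gave p = 0.0107. The smallest p this design allows is 0.00357. The log2 ratio of WLZ3 was lower than that of N2 by 0.78 (difference -0.78) and lower than that of WLZ1 by 0.69 (difference -0.69), while WLZ1 differed from N2 by -0.09.

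Set against the N2 mean, WLZ1 had 57.7 FPKM more lin-15A and 65.3 FPKM more lin-15B. The excess in WLZ3 was 5.91 FPKM of lin-15A and 23.3 FPKM of lin-15B. The excess of WLZ1 was thus 9.77-fold that of WLZ3 for lin-15A and 2.80-fold for lin-15B. Taking the N2 mean as a baseline assumes that the native locus gave the same level in all strains, which the table cannot show.

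**Figure D1:**
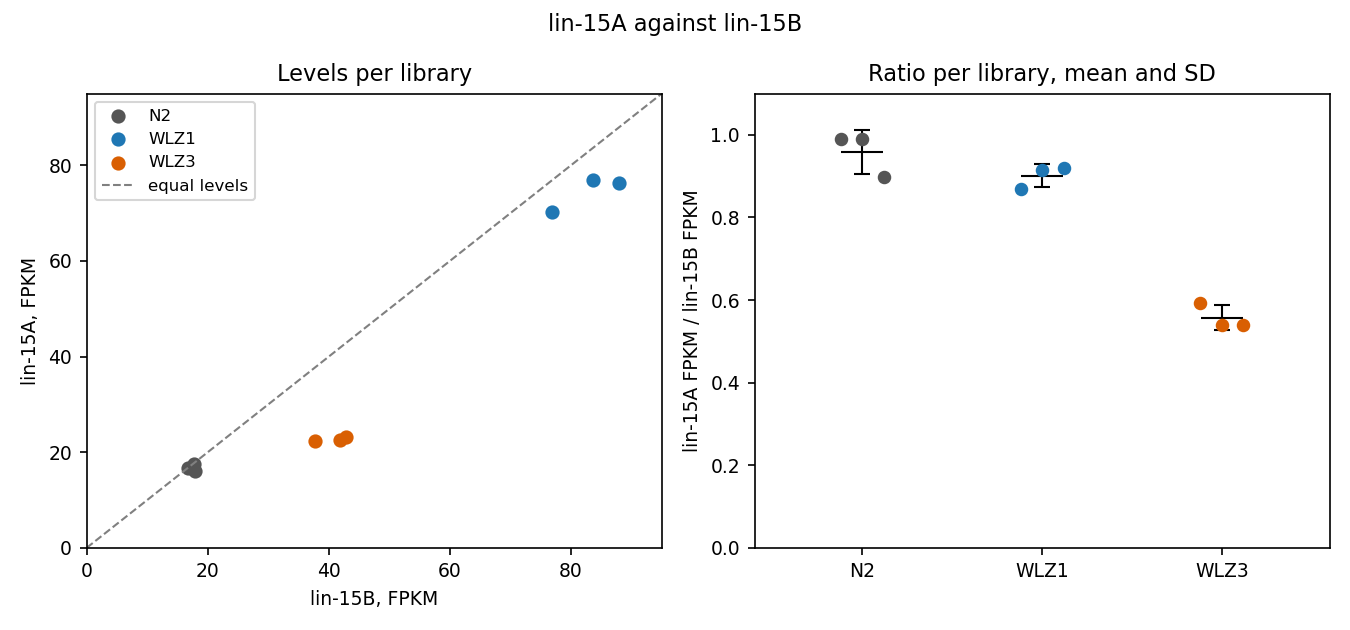
Levels of the lin-15 pair. Left, lin-15A against lin-15B in FPKM, 1 point per library, with a dashed line of equal levels. Right, the ratio of lin-15A to lin-15B per library with mean and SD (n = 3 per strain). WLZ3 lies below the line, at a mean ratio of 0.557, while N2 (0.958) and WLZ1 (0.901) lie near it.

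Of the flanking genes examined beside the native lin-15 locus, only nhr-48 and ZK662.2 were tested, both on the side of lin-15B. Neither was called higher in WLZ1 or WLZ3 than in N2, against 26.6% and 13.3% of all tested genes called higher. So few tested genes cannot show whether the region around the locus was higher. On the side of lin-15B, the nearest gene, ZK662.5, lies 2278 bases away and had 0.748 ± 0.187 FPKM in N2, 0.882 ± 0.146 FPKM in WLZ1 and 0.823 ± 0.193 FPKM in WLZ3, below the filter on low values. The nuclear receptor gene nhr-48, at 9254 bases, was at 13.8 ± 0.656 FPKM in N2, 11.1 ± 0.730 FPKM in WLZ1 and 12 ± 0.484 FPKM in WLZ3. It was called lower in WLZ1 (log2 difference -0.29, SE 0.07, limma adjusted p = 0.00452), but under median-of-ratios scaling this did not pass (adjusted p = 0.146) and under quantile normalization the sign turned (0.13, adjusted p = 0.124). Of the flanking genes measured, ZK662.2 moved most. At 28067 bases from lin-15B, it was at 22.7, 24.5 and 20.8 FPKM in N2, 1.38, 1.39 and 2.02 FPKM in WLZ1, and 13.8, 6.36 and 9.49 FPKM in WLZ3. The 3 groups did not overlap, in the reverse order of the lin-15 genes (WLZ1 minus N2 log2 difference -3.20, SE 0.22, limma adjusted p = 6.22e-06). On the side of lin-15A, srg-64 and nhr-255 had group means of at most 0.045 FPKM in every strain, below the filter.

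In N2 the DREAM genes spanned a wide range of levels per length. lin-53 was highest at 154 ± 10.9 FPKM, followed by lin-37 at 102 ± 4.19 FPKM and efl-1 at 85.8 ± 3.32 FPKM. lin-52 (74.6 ± 6.54 FPKM) and lin-54 (73.0 ± 1.84 FPKM) overlapped and could not be ordered. Below them came dpl-1 at 62.7 ± 1.81 FPKM, lin-35 at 47.3 ± 1.24 FPKM and lin-9 at 37.9 ± 0.575 FPKM, each without overlap with its neighbour in the order. The lin-15 pair, which overlapped each other, was lowest at 17.5 and 16.8 FPKM. Among all tested genes these means ran from percentile 54.8 (lin-15A) to percentile 94.6 (lin-53). In WLZ1, lin-15B reached percentile 86.9 and lin-15A percentile 85.0, among dpl-1, lin-54 and lin-52. The order lin-53, lin-37, efl-1 at the top was the same in all 3 strains.

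**Figure D2:**
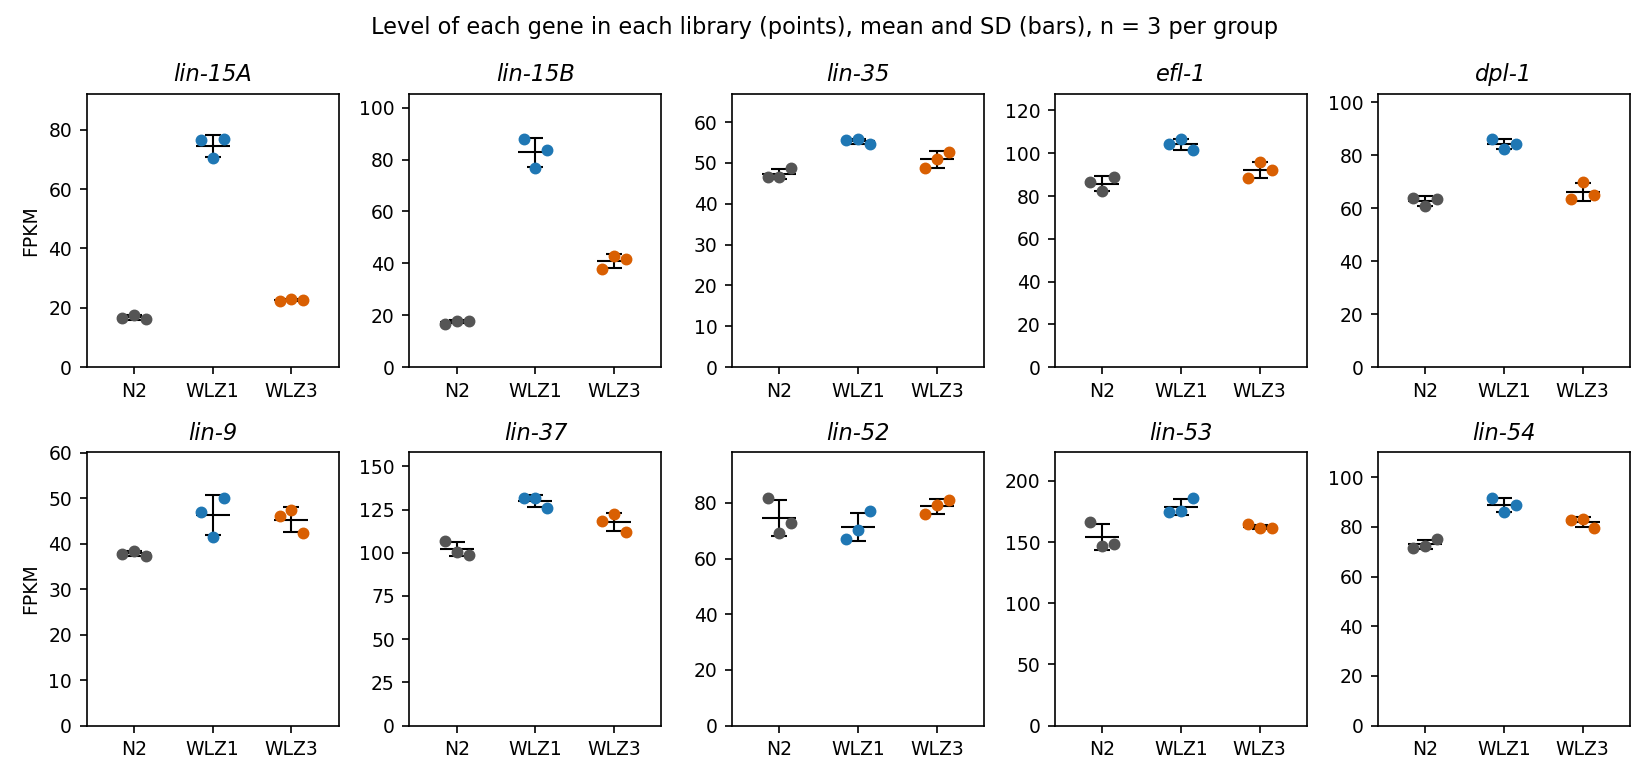
Level of each of the 10 genes in FPKM, 1 panel per gene, 1 point per library, bars for mean and SD (n = 3 per strain), each axis starting at 0. The lin-15 genes rise from about 17 to 74.5 and 82.8 FPKM in WLZ1. The DREAM genes move far less, with lin-52 overlapping in all strains.

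The pocket protein and the E2F and DP genes rose together in WLZ1. lin-35 (WBGene00003020; chromosome I, 5807709 to 5815637, plus strand) encodes the retinoblastoma family protein of the worm, which bridges the E2F and DP pair to MuvB. Its level was 46.6, 46.5 and 48.7 FPKM in N2, 55.6, 55.8 and 54.7 FPKM in WLZ1, and 48.8, 51.0 and 52.8 FPKM in WLZ3. WLZ1 lay above the other strains without overlap, while the lowest WLZ3 library was just above the highest N2 library. The rise in WLZ1 was 1.17-fold (log2 difference 0.22, SE 0.04, limma adjusted p = 0.00134). The difference of WLZ3 from N2 did not pass (0.10, limma adjusted p = 0.0856) but did under median-of-ratios scaling (0.16, adjusted p = 0.0346).

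efl-1 (WBGene00001161; chromosome V, 16958590 to 16965675, minus strand) encodes an E2F transcription factor of the repressive kind. It was at 86.6, 82.2 and 88.7 FPKM in N2, 104.5, 106.6 and 101.6 FPKM in WLZ1, and 88.2, 96.0 and 92.1 FPKM in WLZ3. WLZ1 stood above both other strains, and WLZ3 overlapped N2. The rise in WLZ1 was 1.21-fold (log2 difference 0.28, SE 0.05, limma adjusted p = 0.000634), and WLZ3 against N2 gave 0.10 (limma adjusted p = 0.114).

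dpl-1 (WBGene00001061; chromosome II, 9169910 to 9172565, plus strand), which encodes the DP partner of E2F, had the largest difference of the 8 DREAM genes between WLZ1 and N2. It was at 64.1, 60.7 and 63.5 FPKM in N2, 86.1, 82.4 and 84.3 FPKM in WLZ1, and 63.5, 69.9 and 64.9 FPKM in WLZ3. The WLZ1 libraries lay far above the rest, and WLZ3 overlapped N2. The rise in WLZ1 was 1.34-fold (log2 difference 0.42, SE 0.05, limma adjusted p = 6.18e-05), at percentile 91.2 of all changes. WLZ3 differed from N2 by 0.07 (limma adjusted p = 0.233) and was below WLZ1 by 1.27-fold (log2 difference -0.35, SE 0.05, limma adjusted p = 0.000661), a call kept under all 16 alternatives.

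Of the 5 MuvB core genes, 4 rose in WLZ1 and 3 of these also rose in WLZ3. lin-9 (WBGene00002998; chromosome III, 8900237 to 8904131, minus strand) encodes a scaffold subunit of the core. It was at 37.8, 38.5 and 37.3 FPKM in N2, 47.0, 41.5 and 50.1 FPKM in WLZ1, and 46.1, 47.5 and 42.2 FPKM in WLZ3. Both transgenic strains lay above N2 and overlapped each other. lin-9 was the DREAM gene with the largest difference between WLZ3 and N2, 1.2-fold (log2 difference 0.25, SE 0.07, limma adjusted p = 0.0247). Leaving out N2 replicate 2 (adjusted p = 0.0598), N2 replicate 3 (0.0738), WLZ3 replicate 1 (0.0708) or WLZ3 replicate 2 (0.0797) ended that call. In WLZ1 it was 1.22-fold (log2 difference 0.28, SE 0.07, limma adjusted p = 0.00713).

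lin-37 (WBGene00003022; chromosome III, 7070890 to 7072552, minus strand), whose human counterpart is needed for repression by DREAM, was at 106.9, 100.6 and 98.9 FPKM in N2. It was at 131.9, 131.7 and 125.7 FPKM in WLZ1 and at 118.4, 122.4 and 112.1 FPKM in WLZ3. The 3 groups did not overlap, with WLZ3 between the others. The rise was 1.27-fold in WLZ1 (log2 difference 0.34, SE 0.05, limma adjusted p = 0.000232) and 1.15-fold in WLZ3 (log2 difference 0.20, SE 0.05, limma adjusted p = 0.0125). The WLZ3 call was kept without each replicate in turn and lost with quantile normalization (adjusted p = 0.0726).

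lin-54 (WBGene00003037; chromosome IV, 13241044 to 13243401, plus strand) encodes the DNA-binding subunit that reads the CHR element of cell cycle promoters. It was at 71.6, 72.2 and 75.1 FPKM in N2, 91.8, 86.0 and 88.9 FPKM in WLZ1, and 82.7, 83.3 and 79.5 FPKM in WLZ3. It showed the same order as lin-37, again with no overlap. The rise was 1.22-fold in WLZ1 (log2 difference 0.28, SE 0.04, limma adjusted p = 0.000295) and 1.12-fold in WLZ3 (log2 difference 0.16, SE 0.04, limma adjusted p = 0.0154). Leaving out N2 replicate 2 (adjusted p = 0.0532), WLZ3 replicate 1 (0.0522) or WLZ3 replicate 2 (0.0542), or quantile normalization (0.0584), ended the call in WLZ3.

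lin-53 (WBGene00003036; chromosome I, 9618211 to 9619760, minus strand) encodes a histone-binding protein of the RbAp48 type that also works in other chromatin complexes. It was at 166.6, 146.9 and 148.8 FPKM in N2, 174.5, 175.7 and 186.4 FPKM in WLZ1, and 164.6, 161.4 and 161.4 FPKM in WLZ3. WLZ1 stood above both other strains, and N2 replicate 1 lay above all WLZ3 libraries. The rise in WLZ1 was 1.16-fold (log2 difference 0.22, SE 0.05, limma adjusted p = 0.0059). WLZ3 against N2 did not pass (0.08, limma adjusted p = 0.274) but did without N2 replicate 1 (0.13, adjusted p = 0.0376).

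lin-52 (WBGene00003035; chromosome III, 9824083 to 9824750, minus strand), the small subunit through which MuvB contacts the pocket protein, was the exception. It was at 81.9, 69.2 and 72.7 FPKM in N2, 67.0, 70.1 and 77 FPKM in WLZ1, and 75.9, 79.4 and 80.9 FPKM in WLZ3. All 3 strains overlapped. The log2 difference of WLZ1 from N2 was -0.06 (SE 0.07, limma adjusted p = 0.463), but it was 0.13 under median-of-ratios scaling and 0.0067 without N2 replicate 1, so no direction can be given. WLZ3 differed from N2 by 0.08 (SE 0.07, limma adjusted p = 0.397).

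In all, 9 of the 10 genes were called higher in WLZ1 than in N2 and 0 were called lower, against 26.6% of all tested genes called higher and 41.1% called lower. Of the 8 DREAM genes, 7 were among them, and for 9 of the 10 every WLZ1 library lay above every N2 library, as held for 28.3% of all genes. The median log2 difference of the 8 DREAM genes was 0.28, where that of all genes was -0.13, a gap of 0.41. Under median-of-ratios scaling these medians were 0.47 and 0.04 (gap 0.43), and under quantile normalization they were 0.21 and 0.07 (gap 0.14), with 53.95% and 56.48% of called genes higher in place of 39.29%. The 9 calls were kept under all 16 alternatives.

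Fewer of the genes differed between WLZ3 and N2. There, 5 of the 10 were called higher (both lin-15 genes, lin-9, lin-37 and lin-54) and 0 lower, against 13.3% of all genes called higher and 22.7% called lower. Of the 8 DREAM genes, 3 were called, their median difference was 0.10 against -0.02 for all genes, and for 6 of the 10 genes every WLZ3 library lay above every N2 library, as held for 22.2% of all genes. Under quantile normalization the DREAM median was 0.06 against 0.03 for all genes, and 1 of the 8 DREAM genes was called, lin-9. Leaving out N2 replicate 2, WLZ3 replicate 1 or WLZ3 replicate 2 also left 3 of the 10 genes called, 1 of them a DREAM gene.

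Between the transgenic strains, 7 of the 10 genes were called lower in WLZ3 than in WLZ1 and 0 higher, against 12.6% and 29.6% of all genes. The 5 DREAM genes among them were dpl-1, efl-1 (log2 difference -0.18, limma adjusted p = 0.0147), lin-37 (-0.14, adjusted p = 0.0408), lin-54 (-0.12, adjusted p = 0.0442) and lin-35 (-0.12, adjusted p = 0.0459). The last 3 lay near the threshold and lost their call in several alternatives, up to adjusted p = 0.141, 0.149 and 0.164, while efl-1 lost it without WLZ3 replicate 1 (adjusted p = 0.0547). The 7 calls became 4 without N2 replicate 2 or WLZ1 replicate 1 and 3 without WLZ3 replicate 1. For 8 of the 10 genes every WLZ3 library lay below every WLZ1 library, as held for 18.5% of all genes. lin-9 differed by -0.03 (SE 0.07, limma adjusted p = 0.792), with a sign that turned without WLZ1 replicate 3 or without WLZ3 replicate 3.

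**Figure D3:**
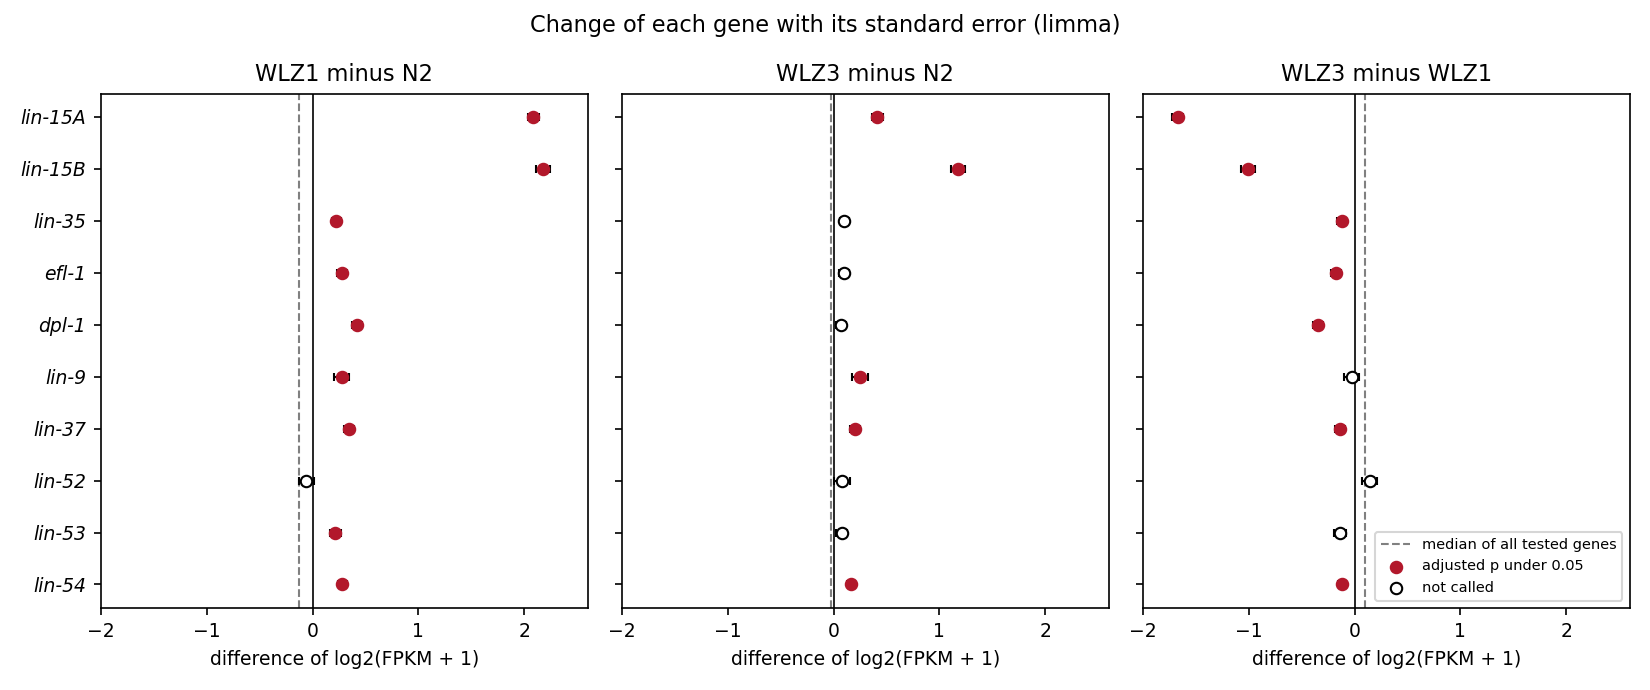
Difference of each gene in log2(FPKM + 1) with its SE in the 3 contrasts. Filled points have a limma adjusted p under 0.05, open points do not, and the dashed line is the median of all tested genes. 9 of 10 points are filled to the right in WLZ1 minus N2, 5 in WLZ3 minus N2, and 7 to the left in WLZ3 minus WLZ1.

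In the relative make-up of the DREAM transcripts, 3 genes had shares that did not overlap between some of the strains. As a share of the summed FPKM of the 8 genes, dpl-1 went from 9.84% ± 0.169 (SD, n = 3) in N2 to 11.1% ± 0.216 in WLZ1 and was 9.51% ± 0.307 in WLZ3. lin-52 went from 11.7% ± 0.601 in N2 to 9.40% ± 0.594 in WLZ1 and was 11.3% ± 0.411 in WLZ3. For both genes the WLZ1 libraries overlapped neither other strain, and N2 and WLZ3 overlapped. lin-37 made up 16% ± 0.367 in N2, below every library of WLZ1 (17.1% ± 0.659) and WLZ3 (16.9% ± 0.504). The gap was very narrow: the highest N2 library was at 16.32%, and the lowest of WLZ1 and WLZ3 were at 16.35% and 16.34%. The shares of lin-35, efl-1, lin-9, lin-53 and lin-54 overlapped between all strains. These shares do not depend on how libraries are scaled, and they were given no test. The shares of a library add up to a whole, so a lower share of lin-52 goes with higher shares elsewhere. With 3 libraries per strain such a lack of overlap can arise by chance, and its rate among other genes was not computed.

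**Figure D4:**
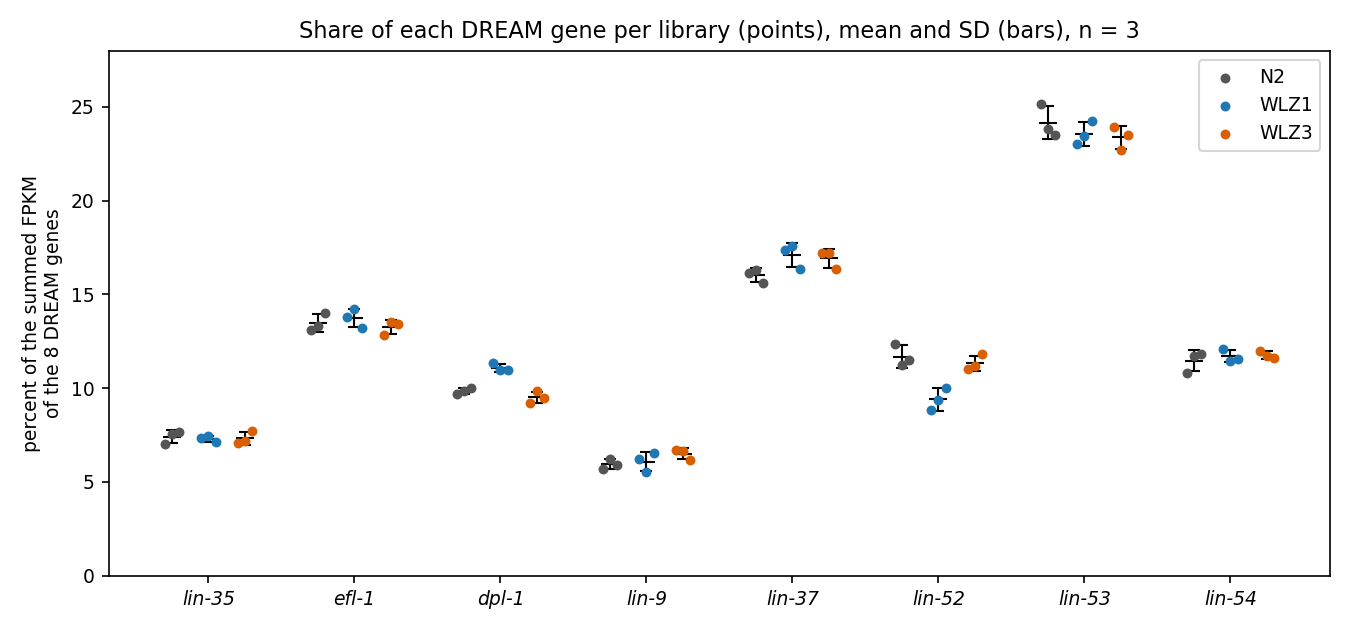
Share of each DREAM gene in the summed FPKM of the 8 genes, in percent, 1 point per library, with mean and SD (n = 3 per strain). In WLZ1 the share of dpl-1 is higher (11.1% against 9.84% in N2) and that of lin-52 lower (9.40% against 11.7%).

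The germ line markers moved in the same direction as the DREAM genes. The summed level of the 8 DREAM genes was 616.7 to 662.1 FPKM in N2, 749.96 to 768.7 FPKM in WLZ1 and 686.0 to 711.0 FPKM in WLZ3. The summed level of the 10 germ line markers was 1713 to 1895 FPKM, 2299 to 2442 FPKM and 2070 to 2114 FPKM in the same order. Per FPKM of germ line markers, the DREAM genes were at 0.349 to 0.370 in N2, 0.315 to 0.330 in WLZ1 and 0.326 to 0.337 in WLZ3, so that on this scale both transgenic strains lay below N2. None of the germ line markers was at 0. Their sum gives most weight to abundant members such as gld-1 (470 FPKM in N2). Gene by gene in WLZ1, the log2 differences were 0.28 to 0.48 for the markers (median 0.37) and -0.06 to 0.42 for the DREAM genes (median 0.28), and these ranges overlap. The part of the germ line in the changes of the DREAM genes was not tested.

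Several of the genes share ground with a neighbour, and no source used here says whether reads were counted by strand. In the Ensembl annotation lin-15B ends at 15732025, beyond the RefSeq end given above. There its exons overlap those of lin-15A by 5 bases on the same strand. By the RefSeq coordinates the pair does not overlap, as lin-15B ends at 15731861 and lin-15A starts at 15731968. lin-35 shares 29 exon bases with hmg-3 on the opposite strand, and hmg-3 was also called higher in WLZ1 (100.2 to 132 FPKM, log2 difference 0.39, limma adjusted p = 3.18e-05). An intron of lin-35 also holds C32F10.4, on the opposite strand, which was called lower in WLZ1 (23.6 to 13.1 FPKM, log2 difference -0.80, limma adjusted p = 4.82e-05). lin-52 shares 50 of its 568 exon bases with arl-5 on the opposite strand, which was called higher in WLZ1 (43.4 ± 3.62 to 51.3 ± 5.53 FPKM, log2 difference 0.23, limma adjusted p = 0.0333). The arl-5 call did not hold without N2 replicate 1 (adjusted p = 0.109), WLZ1 replicate 2 (0.0952) or WLZ1 replicate 3 (0.116), nor under quantile normalization (0.0659). dpl-1 lies within T23G7.2 on the opposite strand without shared exon bases. T23G7.2 was at 18.1, 21.2 and 21.8 FPKM in N2, WLZ1 and WLZ3. Like dpl-1 it was called higher in WLZ1 than in N2 (log2 difference 0.22, limma adjusted p = 0.0326), a call that ended without N2 replicate 1 or 3 or WLZ1 replicate 1 or 3 (adjusted p from 0.0569 to 0.112). Its log2 difference between WLZ3 and WLZ1 was 0.04 (SE 0.08, limma adjusted p = 0.696), where that of dpl-1 was -0.35.

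Paralogues of the DREAM subunits did not move as a group. rba-1, the RbAp46/48-type paralogue of lin-53, went from 105 ± 2.99 FPKM in N2 to 147 ± 10.5 FPKM in WLZ1 (log2 difference 0.47, SE 0.06, limma adjusted p = 8.88e-05) and was at 116 ± 3.62 FPKM in WLZ3. No source used here says how reads shared by the pair were assigned. The E2F genes efl-2 and efl-3 went opposite ways in WLZ1, efl-2 from 33.4 to 39.0 FPKM (log2 difference 0.22, limma adjusted p = 0.0219) and efl-3 from 26.6 to 19.6 FPKM (-0.44, adjusted p = 0.0111). Neither call was firm. efl-2 lost it without N2 replicate 1, N2 replicate 2, WLZ1 replicate 1 or WLZ1 replicate 2 (adjusted p from 0.0585 to 0.0798), and efl-3 with median-of-ratios scaling (0.0580) or quantile normalization (0.0505).

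The other synMuv genes are given by class. Of 12 other class B genes, which include chromatin and SUMO pathway factors, 9 were called higher in WLZ1 and 0 lower, against 26.6% and 41.1% of all genes, and 5 were called higher in WLZ3, against 13.3%. The WLZ3 count rested on single libraries: it was 0 without N2 replicate 3, WLZ3 replicate 1 or WLZ3 replicate 2, 2 without N2 replicate 2 or WLZ3 replicate 3, 3 without WLZ1 replicate 1, and 1 with no filter on low values. ubc-9, the SUMO-conjugating enzyme, rose from 418 ± 12.8 FPKM in N2 to 547 ± 38.4 FPKM in WLZ1 (log2 difference 0.38, SE 0.05, limma adjusted p = 0.000273). smo-1, which encodes SUMO, rose from 606 ± 34.1 to 754 ± 37.7 FPKM (log2 difference 0.31, SE 0.07, limma adjusted p = 0.00474). met-2, a histone H3 lysine methyltransferase, rose from 28.9 ± 2.30 to 35.5 ± 1.14 FPKM (log2 difference 0.29, SE 0.06, limma adjusted p = 0.00202). The class B genes without a call in WLZ1 were lin-13, let-418 and tam-1. With median-of-ratios scaling 12 of 12 were called higher, and with quantile normalization 7 were called higher and 1 lower.

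Apart from lin-15A, the class A genes lin-8, lin-38 and lin-56 gave 0 calls in WLZ1 (limma adjusted p = 0.0766, 0.191 and 0.323), and 1 without WLZ1 replicate 2. Of all genes, 26.6% were called higher and 41.1% lower, and 3 genes are too few to be set apart from these shares. lin-56, whose product works with LIN-15A, was at 19.3 ± 0.480 FPKM in N2, 18.3 ± 1.49 FPKM in WLZ1 and 24.4 ± 0.374 FPKM in WLZ3. It was thus higher in WLZ3 than in N2 (log2 difference 0.32, SE 0.06, limma adjusted p = 0.00603) and than in WLZ1 (0.39, adjusted p = 0.00149), the reverse of lin-15A between the transgenic strains. The class A calls in WLZ1 depended on scaling, with 1 of 3 higher under median-of-ratios scaling and 3 of 3 under quantile normalization. Class C, the acetyltransferase complex genes, gave 1 call each way of 4 in WLZ1, too few to be set apart from the 26.6% and 41.1% of all genes. The higher gene was mys-1, the catalytic subunit (78.7 to 90.4 FPKM, log2 difference 0.20, limma adjusted p = 0.00664). The lower gene was epc-1 (56.1 to 46.6 FPKM, -0.26, adjusted p = 0.00484), which lost its call with median-of-ratios scaling (0.270). Under that scaling 2 class C genes were called higher and 0 lower, and under quantile normalization 2 and 1.

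A list of 8 regulators of the G1 phase and of cyclin-dependent kinases was also examined. Of these, 4 were called higher and 1 lower in WLZ1, against 26.6% and 41.1% of all genes. The lower gene was cki-1, a CIP/KIP inhibitor of cyclin-dependent kinases, at 19 ± 0.272 FPKM in N2, 8.18 ± 2.21 FPKM in WLZ1 and 17.4 ± 0.872 FPKM in WLZ3 (WLZ1 minus N2 log2 difference -1.15, SE 0.16, limma adjusted p = 0.000192). Its paralogue cki-2 went the other way, from 43.6 ± 3.07 to 58.4 ± 1.67 FPKM in WLZ1 (log2 difference 0.42, SE 0.06, limma adjusted p = 0.000422). cdc-25.1, the phosphatase that activates these kinases in the germ line, rose from 103 ± 2.05 to 128 ± 2.40 FPKM (log2 difference 0.31, SE 0.04, limma adjusted p = 7.44e-05). Cyclin D (cyd-1) and cdk-4, which phosphorylate LIN-35, were not called.

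Genes of the kind that E2F and DREAM control were higher with the subunits themselves. Of 24 cell cycle genes, 23 were called higher in WLZ1 and 13 in WLZ3, with 0 lower in either, against 26.6% and 13.3% of all genes called higher, and the median differences were 0.30 and 0.15. The 13 calls in WLZ3 became 3 without N2 replicate 2, 6 without N2 replicate 3, and 7, 4 and 8 without WLZ3 replicate 1, 2 and 3. The largest differences called in WLZ1 were at orc-2 (origin recognition, 35.9 to 46.4 FPKM, log2 difference 0.36), bub-1 (spindle checkpoint, 65.7 to 84.6 FPKM, 0.36) and plk-1 (mitotic kinase, 125 to 159 FPKM, 0.34). Of 18 genes of P granules and meiosis, the class held silent in somatic cells by DREAM and LIN-15B, 17 were called higher in WLZ1 (26.6% of all genes), 11 in WLZ3 (13.3%) and 0 lower in either. The 11 calls in WLZ3 became 6 without N2 replicate 2 or WLZ3 replicate 1 and 5 without N2 replicate 3. glh-2, a germ line helicase, went from 73.6 to 103 FPKM (log2 difference 0.47), and him-3, a chromosome axis protein, from 56.3 to 77.2 FPKM (0.45). deps-1, a P granule protein, was at 108 ± 7.01 FPKM in N2, 148 ± 10.3 FPKM in WLZ1 and 103 ± 3.65 FPKM in WLZ3, where the difference from N2 did not pass (limma adjusted p = 0.396). pgl-1 and glh-1 stand both in this list and among the germ line markers, and no gene of either list was called lower under the other scalings. In WLZ3, quantile normalization called 6 of the 24 cell cycle genes and 12 of the 18 P granule and meiosis genes, and median-of-ratios scaling 16 and 15. These lists moved in the direction of the germ line markers, all 10 of which were called higher in WLZ1, and the part of the germ line in them was not tested.

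**Figure D5:**
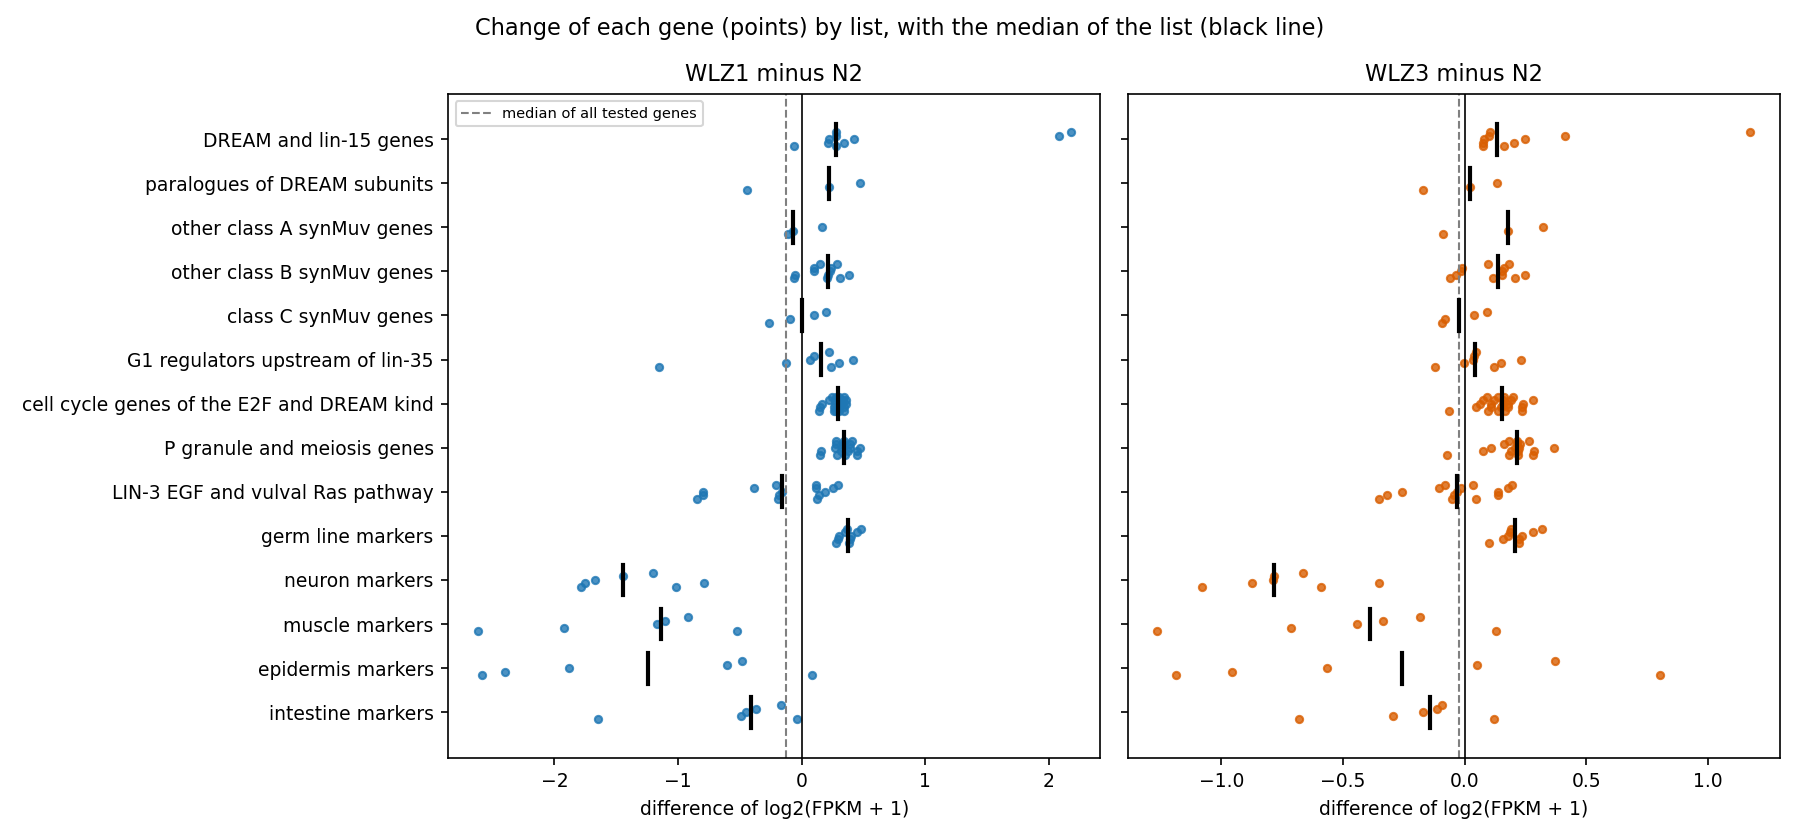
Differences in log2(FPKM + 1) by gene list for WLZ1 minus N2 (left) and WLZ3 minus N2 (right), 1 point per gene, a black line at the median of each list and a dashed line at the median of all tested genes. The lists of cell cycle genes (medians 0.30 and 0.15) and of P granule and meiosis genes (0.34 and 0.22) lie to the right with the DREAM genes, and the neuron and muscle markers to the left. The sperm markers are not drawn.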

How the data were processed

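The authors deposited 1 table of FPKM per gene for 9 whole-worm poly(A) libraries, 3 per strain. The submitters' processing notes name featureCounts 2.0.3, fastp 0.23.2 and HISAT2 2.2.1, and the build WBcel235, without parameters or a strand setting. Of 28749 genes, 28744 matched the RefSeq genes by locus tag and 5 did not. Exon lengths, strands and overlaps came from the Ensembl release 115 annotation. FPKM times exon length gave whole reads (within 0.01) for 21904 genes, 92.07% of the genes above 0 that had a length in that annotation. This recovered the library totals. lin-15B is an exception, since its annotated length of 4590 bases gave no whole reads and 4579 bases did. The reason was not examined. Counts of low genes were mostly even, as when both mates of a pair are counted. Genes with FPKM of at least 1 in at least 3 libraries (14862) were tested on log2(FPKM + 1) with limma 3.58.1 (R 4.3.3) over all 3 strains, with Benjamini-Hochberg adjustment over all tested genes and a threshold of 0.05. The script recovered changes put into simulated data. These were larger than any difference of the DREAM genes, so recovery at that smaller size was not checked. No replicate columns were identical. Named beyond the 10 genes were up to 3 called genes per list with the largest change, overlapping genes, 5 genes on each side of lin-15 (those in the table) and the 4 most alike profiles. lin-3 and the genes without a call were named after their values were seen. The members and lists were chosen with earlier results of these data known. Alternatives were other pseudocounts, no filter, median-of-ratios scaling, quantile normalization, a fit of the compared strains alone, a replicate block and leaving out each library. No sequence is printed.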

Additional observations from a re-analysis of the deposited data

How the results depend on the processing

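Each of the 30 changes of the 10 genes was recomputed under 16 alternatives, which gave 480 values: 432 kept direction and side of the threshold, 39 lost the call, 5 gained it and 4 turned sign. The signs turned for lin-52 in WLZ1 minus N2 (0.13 under median-of-ratios scaling, and from -0.12 to 0.0067 with 1 library left out) and for lin-9 in WLZ3 minus WLZ1 (from -0.10 to 0.033 with 1 library left out). Of the other named genes, lin-56 in WLZ1 minus N2 was 0.11 under median-of-ratios scaling and 0.18 under quantile normalization, and nhr-48 was 0.13 under quantile normalization. The causes were not tested. The number of the 10 genes called in WLZ3 minus N2 was 3 with quantile normalization and ranged from 3 to 6 when 1 library was left out. In WLZ3 minus WLZ1 it was 4 with no filter and ranged from 3 to 8 with 1 library left out. All genes called in WLZ3 minus N2 ranged from 3013 (without N2 replicate 2) to 5597, around 5354 with all libraries, with 3204 without N2 replicate 3. Where 2 libraries were left in a strain, the spread came from the fit over all strains. Replicate numbers recur across strains, but same-numbered libraries did not deviate together (correlations of deviations from -0.145 to 0.244), so the numbers did not pair them. With a replicate block the fit called 9623, 4410 and 5429 of all genes in the 3 contrasts and 9, 4 and 5 of the 10, where lin-9 in WLZ3 minus N2 (adjusted p = 0.0534), and lin-35 (0.0811) and lin-54 (0.0911) in WLZ3 minus WLZ1, were not called. Pseudocounts of 0.1 and 0.5 moved no count by over 1.5 times. Depth limited none of the 10 genes, but genes under the filter, such as most neighbours of lin-15, could not be tested, and the low number of libraries limits differences near 0.1 on the log2 scale.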

Other observations

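Of 15 genes of LIN-3 EGF signalling and the vulval Ras pathway, on which synMuv proteins act, 4 were called higher and 6 lower in WLZ1, a share near that of all tested genes (26.6% and 41.1%), and the list's median of -0.16 changed sign under median-of-ratios scaling and quantile normalization. lin-3, which encodes the EGF ligand repressed by the synMuv genes, was at 25.3 ± 2.25 FPKM in N2, 27.6 ± 2.11 FPKM in WLZ1 and 28.8 ± 1.19 FPKM in WLZ3, with limma adjusted p = 0.193 and 0.0931 against N2. The 3 called genes with the largest absolute differences in WLZ1 are named here, and all 3 were lower. They were picked by size and do not speak for the list, in which the 4 genes called higher differed by at most 0.29. lin-39, a Hox gene, was at 12.5 ± 1.65 FPKM in N2 and 6.46 ± 0.598 FPKM in WLZ1 (log2 difference -0.85, SE 0.10, limma adjusted p = 9.63e-05). lin-1, an ETS factor, was at 12.7 ± 1.12 and 6.84 ± 0.464 FPKM (log2 difference -0.80, SE 0.09, limma adjusted p = 6.96e-05). lin-31, a forkhead factor, was at 1.97 ± 0.364 and 0.704 ± 0.175 FPKM, where fold changes are understated by the pseudocount (log2 difference -0.80, SE 0.16, limma adjusted p = 0.00157).

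Likeness was measured as the Euclidean distance between profiles of log2(FPKM + 1) over the 9 libraries, each centred on its N2 mean, among 9524 genes (mean level 5 FPKM or more). The 4 genes nearest to the mean of the 8 DREAM genes were prp-4, F09G2.8, zen-4 and rfp-1, at distances of 0.057 to 0.064. The genes nearest to lin-15A were E02H9.9, C18D4.6, T23G11.1 and H11L12.1 (0.997 to 1.30), and those nearest to lin-15B were H11L12.1, T02G5.11, W05H7.2 and C18D4.6 (0.585 to 1.28). The lin-15 genes were 1.33 apart from each other, as lin-15B ranked 5 from lin-15A and lin-15A ranked 6 from lin-15B.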
